A study of Mus musculus with 8 samples.

Results

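The class III POU genes Pou3f1 (Oct6), Pou3f2 (Brn2), Pou3f3 (Brn1) and Pou3f4 (Brn4) encode transcription factors that bind DNA through a POU-specific domain and a POU homeodomain. They are best known from the developing nervous system. Pou3f2 and Pou3f3 act in cortical progenitors and newborn neurons, Pou3f1 acts in the late epiblast, at the entry into the neural lineage and in Schwann cells, and Pou3f4 acts in the ventral forebrain and the inner ear. Their coding sequences hold no introns, and Pou3f3 lies head to head with Pantr1, a long noncoding RNA that is transcribed away from it. These 5 genes were selected on their measured FPKM values (fragments per kilobase of transcript, scaled to the mapped fragments of each library) across genotype and day, out of 24849 genes listed, so their values are a description and no test is attached to them.

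The values came from polyA RNA sequencing of MPI-II mouse embryonic stem cells (mESCs, strain 129S2/SvPas), wild type or Pcgf5-/-, at day 0 and at day 6 of neural differentiation, with 2 biological replicates for each of the 4 conditions. All cells were grown on feeder cells with serum, LIF and the 2i inhibitors CHIR99021 and PD0325901, and were then differentiated as a monolayer in N2B27 medium. PCGF5 is a subunit of a variant Polycomb repressive complex 1, and the comparison asked how its loss changes gene expression as mESCs turn into neural precursors. The knockout was made with TALENs and drug selection followed by picking of colonies, and the number of clones behind the Pcgf5-/- samples is not given in the sources used here, so the genotype and the history of a clone cannot be told apart.

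Pcgf5 itself was listed at 5.18 and 3.63 FPKM in wild type and at 1.28 and 1.84 FPKM in Pcgf5-/- cells at day 0. Its values of day 6 were 9.16 and 5.06 FPKM in wild type, compared with 0.669 and 0.457 FPKM in Pcgf5-/- cells, lower by 2.33 on the log2(FPKM + 1) scale (log2 fold change -2.33, SE 0.28, limma adjusted p = 0.00421). At day 0 the difference was -1.07 (SE 0.28, limma adjusted p = 0.105). Pcgf5 was thus lower in every Pcgf5-/- sample, while reads from the locus were still present. The wild-type replicate 1 of day 6 was higher in endoderm genes than replicate 2, with Gata4 at 10.6 against 0.706 FPKM. Gata6 was at 5.70 against 0.405 FPKM and Sox17 at 2.48 against 0.187 FPKM. The summed level of 8 mesendoderm markers at day 6 was 23.4 and 4.11 FPKM in wild-type replicates 1 and 2. In Pcgf5-/- replicates 1 and 2 of day 6 it was 12.7 and 4.04 FPKM. Values without the wild-type replicate 1 of day 6 are given where they bear on a result. At day 0 the Pcgf5-/- replicate 2 had the highest summed level of the 10 feeder fibroblast markers, 715 FPKM against 267 to 382 in the other 3 samples. The RNA is from whole cultures, so fewer cells of a type and less RNA per cell cannot be told apart.

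Pou3f2, a cortical progenitor and neuronal factor that is also used to convert fibroblasts into neurons, lay on chromosome 4 from 22409242 to 22415513 (build mm9). At day 0 it was listed at 0.307 and 0.306 FPKM in wild type and at 0.177 and 0.256 FPKM in Pcgf5-/- cells. At day 6 it reached 29.1 and 21.9 FPKM in wild type against 5.65 and 4.87 FPKM in Pcgf5-/- cells. All samples of day 6 lay above all those of day 0, and both Pcgf5-/- samples of day 6 lay below both wild-type ones. The day 6 means were 25.5 ± 5.04 and 5.26 ± 0.554 FPKM (SD, n = 2), so the Pcgf5-/- mean was 20.6% of the wild-type mean. The fitted log2 fold change of FPKM + 1 between the genotypes was -2.07 (SE 0.20) at day 6 and -0.10 (SE 0.20) at day 0. Between the days it was 4.33 in wild type and 2.36 in Pcgf5-/- cells (SE 0.20 each).

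Pou3f3, whose expression overlaps with that of Pou3f2 in the developing cortex, lay on chromosome 1 from 42753991 to 42757054 and gave almost the same values. The files give it 3064 bp where RefSeq gives a span of 4443 bp, so its FPKM rests on a shorter locus. It was listed at 0.579 and 0.118 FPKM in wild type and at 0.145 and 0.412 FPKM in Pcgf5-/- cells at day 0. Its values of day 6 were 26.7 and 22.1 FPKM in wild type, compared with 4.67 and 4.56 FPKM in Pcgf5-/- cells. The genotypes overlapped at day 0 and lay apart at day 6, with means of 24.4 ± 3.24 and 4.62 ± 0.0718 FPKM (SD, n = 2). The Pcgf5-/- mean was 18.9% of the wild-type mean, and the log2 fold change was -2.17 (SE 0.23). The ratio of Pou3f2 to Pou3f3 FPKM was between 0.992 and 1.21 in the 4 samples of day 6, although the genes lie on different chromosomes and their summed level differed severalfold between genotypes.

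Pantr1, on chromosome 1 from 42705045 to 42751670, was listed at 0 in all 4 samples of day 0. At day 6 it was at 25.2 and 17.1 FPKM in wild type and at 2.73 and 2.93 FPKM in Pcgf5-/- cells. It had the lowest Pcgf5-/- share among the 5 genes, 13.4% of the wild-type mean, with means of 2.83 ± 0.141 and 21.1 ± 5.74 FPKM (SD, n = 2) and a log2 fold change of -2.51 (SE 0.21). The Pantr1 to Pou3f3 ratio was 0.943 and 0.771 in the wild-type samples and 0.585 and 0.641 in the Pcgf5-/- samples. By the listed values the noncoding gene was thus further down than its coding neighbour, though with 2 samples in each group. The Pantr1 values of both wild-type samples of day 6 exceeded the upper bound that cufflinks gives for them, 22.2 and 15.7 FPKM. Its bounds in the Pcgf5-/- samples were wide, 1.12 to 3.57 and 1.24 to 3.84 FPKM, so the order of Pantr1 and Pou3f3 is not firm. Between 6.35% and 7.79% of all values above 0 in a sample also exceeded their upper bound, and the cause was not tested.

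Pou3f4, known for its part in inner ear development and in striatal precursors, was the lowest of the family. The files give it only 1086 bp on chromosome X, from 108009804 to 108010889, where RefSeq gives a span of 4730 bp, so its FPKM counts a shorter transcript than RefSeq describes. It was at 0 and 0.0623 FPKM in wild type and at 0 and 0.139 FPKM in Pcgf5-/- cells at day 0. Its values of day 6 were 2.97 and 2.04 FPKM in wild type, compared with 1.10 and 0.446 FPKM in Pcgf5-/- cells. The genotypes lay apart at day 6, with means of 2.51 ± 0.653 and 0.775 ± 0.465 FPKM (SD, n = 2). The Pcgf5-/- mean was 30.9% of the wild-type mean, while the log2 fold change of -0.99 (SE 0.23) was held back by the 1 FPKM added to such low values.

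Pou3f1, on chromosome 4 from 124334889 to 124337899, went the other way. At day 0 it was at 0.921 and 0.738 FPKM in wild type and at 1.08 and 2.67 FPKM in Pcgf5-/- cells. At day 6 it was at 11.1 and 7.89 FPKM in wild type and at 28.3 and 12.2 FPKM in Pcgf5-/- cells. Both Pcgf5-/- samples lay above both wild-type samples on each day, but the lower Pcgf5-/- sample of day 6 and the higher wild-type sample were close. Their cufflinks intervals, 10.7 to 13.6 FPKM and 9.80 to 12.0 FPKM, overlapped. The day 6 means were 20.3 ± 11.4 and 9.51 ± 2.29 FPKM (SD, n = 2), a ratio of 2.13 with a spread in Pcgf5-/- cells as large as the difference. The log2 fold change was 0.92 (SE 0.40), and it was 0.35 without the Pcgf5-/- replicate 1 and 1.50 without replicate 2. The ratio of its means between the days was 11.5 in wild type and 10.8 in Pcgf5-/- cells. With 1 sample of the genotype left out at a time it ran from 9.51 to 13.4 in wild type and from 6.51 to 18.8 in Pcgf5-/- cells, whose higher sample of day 0, at 2.67 FPKM, is the one with the highest feeder markers.

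**Figure D1:**
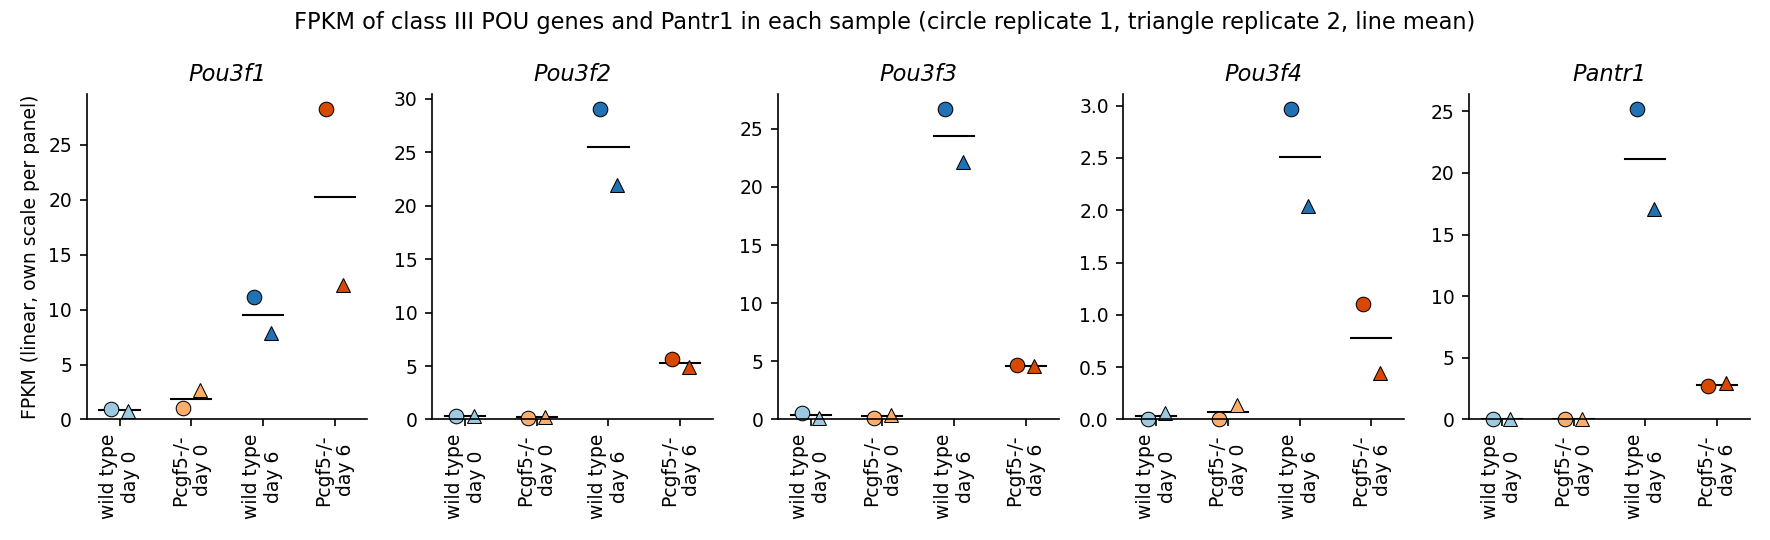
FPKM (linear axis, own scale in each panel) of the 5 genes in the 8 samples, grouped by genotype and day, with circles for replicate 1, triangles for replicate 2 and a line at the mean. Pou3f2, Pou3f3, Pou3f4 and Pantr1 are highest in wild type at day 6, and Pou3f1 is highest in Pcgf5-/- cells at day 6, where its samples are at 28.3 and 12.2 FPKM.

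At day 6, 4 of the 5 genes had both Pcgf5-/- samples below both wild-type samples and 1, Pou3f1, had both above. Of the 13214 genes with a mean over 1 FPKM in some condition, 28.8% lay below and 33.4% lay above in the same way, so with 2 samples a group such a separation is common. By fitted fold change Pantr1, Pou3f3 and Pou3f2 ranked 14, 21 and 26 from the lowest of the 13214 genes, Pou3f4 ranked 496 from the lowest and Pou3f1 ranked 754 from the highest. These ranks use the values that chose the genes and support nothing further. At day 0, Pou3f1 lay above (34.6% of genes did), Pou3f2 lay below (13.3% did), and the other 3 overlapped. All 5 rose without overlap from day 0 to day 6 in wild type, where 49.5% of genes did, and in Pcgf5-/- cells, where 43.3% did. All 5 passed the 1 FPKM filter, Pou3f4 through the wild-type samples of day 6 alone. Without the wild-type replicate 1 of day 6, the log2 fold changes at day 6 were -1.88 for Pou3f2, -2.04 for Pou3f3, -0.80 for Pou3f4, -2.24 for Pantr1 and 1.15 for Pou3f1.

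The family as a whole was both lower and differently composed in Pcgf5-/- cells at day 6. FPKM is scaled by transcript length, so the levels of the 4 coding genes were added, with Pou3f3 and Pou3f4 at the shorter loci of the files. At day 6 the sum was 69.9 and 54.0 FPKM in wild type, compared with 39.7 and 22.1 FPKM in Pcgf5-/- cells. Pou3f1 made up 15.9% and 14.6% of this sum in wild type and 71.2% and 55.3% in Pcgf5-/- cells. Without Pou3f1, the sum was 58.7 and 46.1 FPKM in wild type against 11.4 and 9.88 FPKM. At day 0 the sum was between 1.22 and 3.48 FPKM, with Pou3f1 at 50.9% and 60.3% of it in wild type and at 77.0% and 76.8% in Pcgf5-/- cells. The share of Pou3f1 at day 6 was thus below that of day 0 in both genotypes, without overlap, though at day 0 all 4 genes were under 1 FPKM in wild type, as were all but Pou3f1 in Pcgf5-/- cells. The coding transcripts share at most 38 identical bases in a row (Pou3f1 with Pou3f2).

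**Figure D2:**
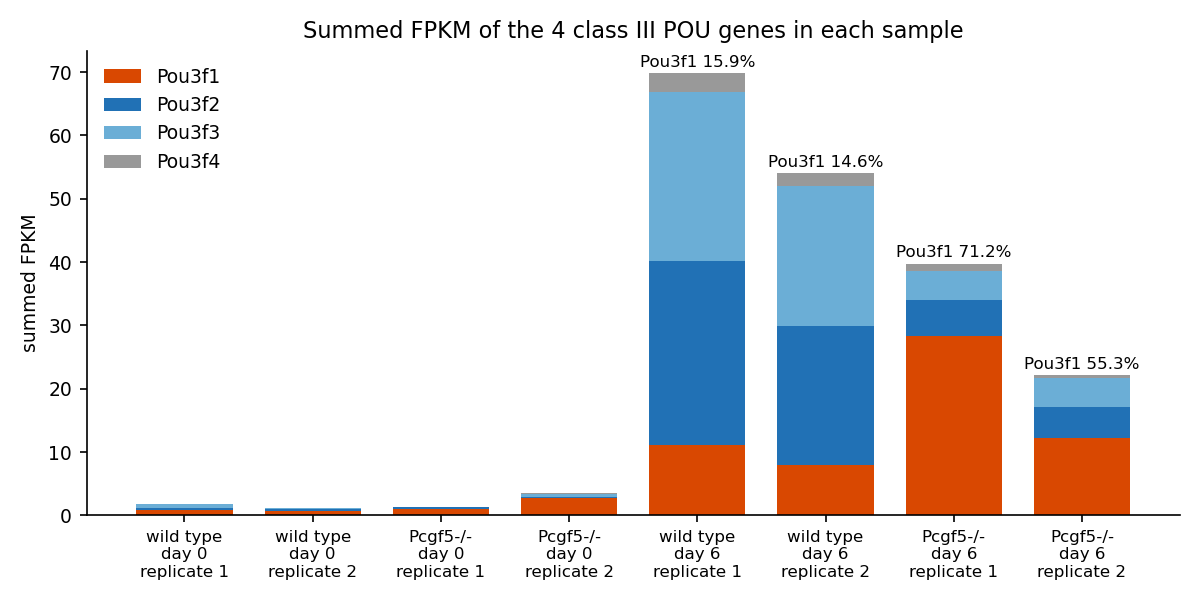
Stacked bars of FPKM (linear axis from 0) of Pou3f1, Pou3f2, Pou3f3 and Pou3f4 in each of the 8 samples, with the percent of Pou3f1 written above the samples of day 6. The blue segments, Pou3f2 and Pou3f3, fill most of the wild-type bars of day 6, while Pou3f1 fills 71.2% and 55.3% of the Pcgf5-/- bars.

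The profiles over the 8 samples were also compared with those of 13161 other genes of at least 300 bp, by the root mean square difference of log2(FPKM + 1) after each gene was centred on its own mean. The points share libraries and the 4 conditions, so this is a description. The gene nearest to Pou3f2 was Pou3f3 (0.17), and the gene nearest to Pou3f3 was Pou3f2. Pantr1 came next for both, at 0.19 and 0.20. Other near genes were Apba2, an adaptor of neuronal vesicle proteins, for Pou3f2 (0.20), the homeobox gene Irx5 for Pou3f3 (0.22) and Hes3, a HES family repressor, for Pantr1 (0.28). Pou3f4 was nearest to Megf9, the proneural gene Neurog2 and the zinc finger gene Tshz3 (0.12 each). Pou3f1 was nearest to Myrf, the myelin regulatory factor (0.22), Mtap7d3 (0.25) and the protocadherin Pcdh1 (0.30). Myrf was at 7.68 and 3.78 FPKM in wild type and at 25.4 and 9.65 FPKM in Pcgf5-/- cells of day 6, so it shared the high value of the Pcgf5-/- replicate 1. The genotype difference of Myrf was 1.38 (SE 0.45, limma adjusted p = 0.0707) and that of Mtap7d3 was 0.92 (SE 0.23, limma adjusted p = 0.0335). Seen from Pou3f1, the nearest of the other members was Pou3f4, at rank 1644 of all tested genes. Seen from Pou3f4, Pou3f1 was at rank 11066. Their log2 fold changes between the genotypes at day 6 were opposite, 0.92 for Pou3f1 and -0.99 for Pou3f4.

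Promoter sequences from RefSeq (build GRCm38.p6) were on hand for 3 of the 5 genes. The 250 bases before the transcription start of Pou3f2, Pou3f3 and Pou3f4 are shown because these 3 family members were lower together. Each matched mm9 exactly and once, at chr4:22415514-22415763 (minus strand), chr1:42752363-42752612 (plus strand) and chrX:108009468-108009717 (plus strand), and each lies outside the locus that the files give. Capitals mark CCAAT, or ATTGG where it is on the other strand, a letter pattern picked after the sequences had been read.
Pou3f2: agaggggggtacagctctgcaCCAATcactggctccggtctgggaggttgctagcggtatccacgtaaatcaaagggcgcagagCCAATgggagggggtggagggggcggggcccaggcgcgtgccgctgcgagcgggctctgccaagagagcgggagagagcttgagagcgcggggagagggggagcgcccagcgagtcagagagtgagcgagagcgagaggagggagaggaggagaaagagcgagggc
Pou3f3: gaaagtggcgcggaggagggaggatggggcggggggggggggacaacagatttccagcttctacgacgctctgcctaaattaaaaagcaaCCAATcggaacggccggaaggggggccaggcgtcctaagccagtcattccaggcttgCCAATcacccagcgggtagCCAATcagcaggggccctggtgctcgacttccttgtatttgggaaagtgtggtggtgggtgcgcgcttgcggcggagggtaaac
Pou3f4: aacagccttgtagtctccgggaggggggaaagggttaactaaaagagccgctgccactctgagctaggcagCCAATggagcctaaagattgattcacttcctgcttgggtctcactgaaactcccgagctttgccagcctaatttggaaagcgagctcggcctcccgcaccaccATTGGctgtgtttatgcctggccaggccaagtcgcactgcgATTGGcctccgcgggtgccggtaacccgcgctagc
The windows held 2, 3 and 3 copies of CCAAT, counted on both strands. Of 27025 RefSeq mouse promoters of this length, 34.5% held at least 1 copy, 10.5% at least 2 and 2.98% at least 3. The octamer ATGCAAAT, the letters that POU factors are known to bind, was in none of the 3 windows and in 1.61% of all. The 3 windows held 18, 15 and 13 CpG dinucleotides against a median of 6, and 31.8% of all promoters held at least 13. These are counts of letters and say nothing about binding.

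The difference at day 6 was also read at the genes that flank each locus, which the rule did not use. Next to Pou3f3, 126 bp beyond its end, lies the noncoding gene 2900092D14Rik. It was between 0.0212 and 0.0502 FPKM in the 4 samples of day 0, at 8.86 and 8.06 FPKM in wild type at day 6 and at 1.11 and 1.09 FPKM in Pcgf5-/- cells. It was lower in Pcgf5-/- cells by about the same amount as Pou3f3, with a log2 fold change of -2.17 (SE 0.16, limma adjusted p = 0.00272), and the adjusted p stayed between 0.00151 and 0.0275 over 16 other settings. Whether the libraries kept the strand is not given in the sources used here, and fragments that run past the annotated end of Pou3f3 cannot be told apart from those of this neighbour. The next gene, Pantr2, and 4930448I06Rik and Tmem182 on the side of Pantr1 were listed at 0 in all samples.

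Farther from the loci most of the tested genes did not pass the test. Within 500 kb of Pou3f3, 5 other genes were tested, of which 2 were lower in Pcgf5-/- cells at day 6, 2900092D14Rik and Tgfbrap1 (-0.83, SE 0.18, limma adjusted p = 0.0201), and none was higher. Over all 13214 genes, 7.05% were called lower and 9.57% higher. Around Pou3f1, 15 genes were tested and 1 was called, Gnl2, which was higher by 0.40 (SE 0.11, limma adjusted p = 0.0377). Tgfbrap1 and Gnl2 are named here after their values had been seen. The genes nearest to Pou3f1 that could be tested, Utp11l at 18.1 kb and Fhl3 at 40.0 kb, had log2 fold changes of 0.33 (SE 0.19, limma adjusted p = 0.257) and -0.04 (SE 0.26, limma adjusted p = 0.945), and 4933407E24Rik and 1700057H15Rik on the other side were at or under 0.208 FPKM in every sample.

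Pou3f2 and Pou3f4 lie in gene-poor stretches. Pnky, a noncoding RNA of neural stem cells that lies 2181 bp from Pou3f2, was at 0.400 and 0.626 FPKM in wild type at day 6, at 0 and 0.208 FPKM in Pcgf5-/- cells and at 0 in all samples of day 0, under the 1 FPKM needed for the test. On its other side Fbxl4, an F-box protein gene at 48.0 kb, was tested and had a log2 fold change of 0.15 (SE 0.26, limma adjusted p = 0.727). Faxc, at 481 kb, fell outside the window only by its middle and was lower in Pcgf5-/- cells, at 1.93 and 2.67 FPKM against 6.08 and 7.23 FPKM (-1.22, SE 0.21, limma adjusted p = 0.0103). Mms22l, on the side of Pnky, differed by 0.18 (SE 0.17, limma adjusted p = 0.502). Near Pou3f4, Gm7134 and Cylc1 were at 0 throughout, Gm6377 was at or under 0.0888 FPKM, and Rps6ka6 differed by -0.13 (SE 0.18, limma adjusted p = 0.658).

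**Figure D3:**
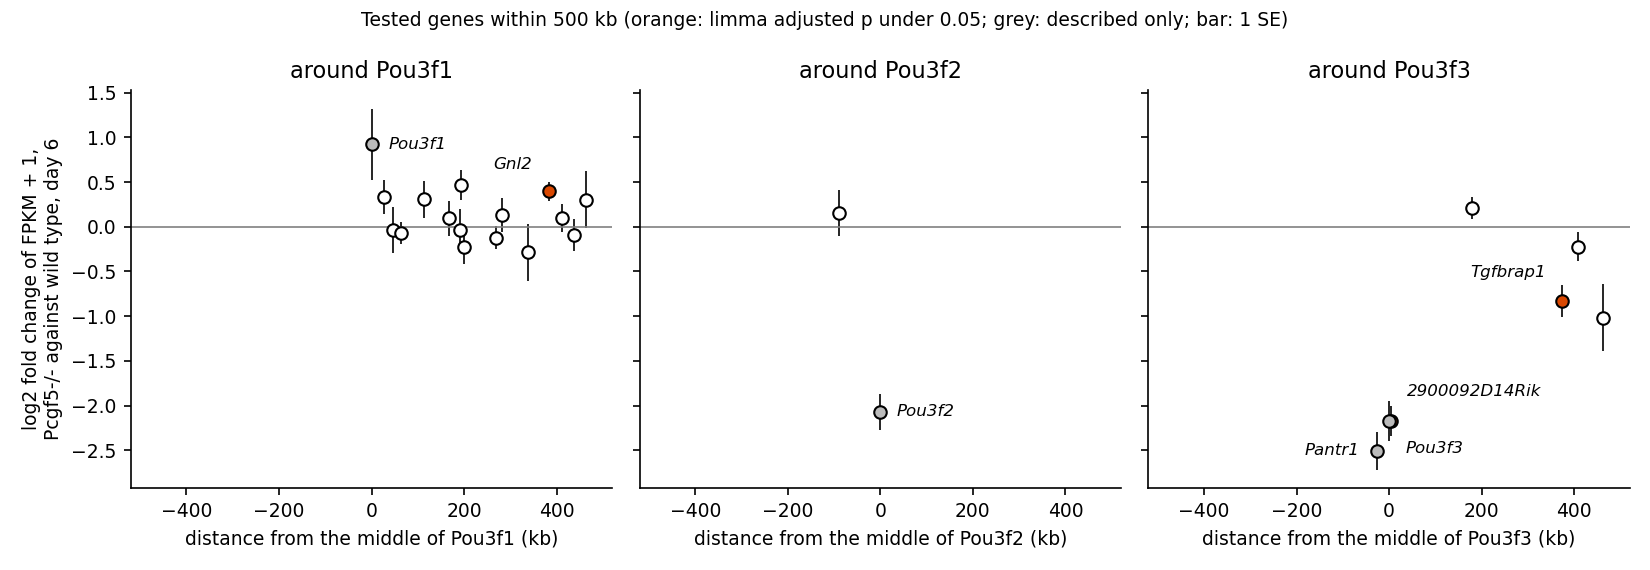
Log2 fold change of FPKM + 1 in Pcgf5-/- against wild type at day 6 (points, with bars of 1 SE) for tested genes within 500 kb of the middle of Pou3f1, Pou3f2 and Pou3f3, against the distance in kb. The genes of the Pou3f3 locus, Pantr1, Pou3f3 and 2900092D14Rik (its point nearly hidden behind that of Pou3f3), lie between -2.51 and -2.17. The other genes around Pou3f3 lie between -1.015 and 0.21, and the neighbours of Pou3f1 and Pou3f2 between -0.29 and 0.46.

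Genes related to the class III POU factors were read from lists of 43 genes in all, of which 29 passed the filter. The lists hold other POU genes, SOX partners, known or proposed targets, and neuronal and cortical co-factors. They were chosen with earlier results of these data known. Setting their counts beside those of all genes, here and below, is thus a description and no test of enrichment. At day 6, 13 of the 29 were lower in Pcgf5-/- cells and 1 was higher, against 7.05% lower and 9.57% higher over all genes, and their median log2 fold change was -0.68 against 0.02. Among the 13, Zic1, Myt1 and Neurog2 passed the filter through the wild-type samples of day 6 alone. The count of 14 rested on few samples. It was 1, Nes, without the Pcgf5-/- replicate 1, 9 without the Pcgf5-/- replicate 2, 8 without the wild-type replicate 1 that held endoderm genes, and 7 without the wild-type replicate 2. At day 0 limma called none of the 29, and 3 had an unadjusted p under 0.05, Sox3, Sox4 and Sox11. Over all genes 0.288% were called higher and 0.0454% lower at day 0.

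SOX proteins bind DNA together with POU factors, and 6 of the 7 listed SOX genes were tested. Sox11, a factor of newborn neurons, was at 97.9 and 85.4 FPKM in wild type and at 35.9 and 41.0 FPKM in Pcgf5-/- cells of day 6, lower by 1.23 on the log2 scale (log2 fold change -1.23, SE 0.21, limma adjusted p = 0.0104). Sox1, an early neuroectodermal gene, was at 50.3 and 67.9 FPKM against 22.7 and 28.3 FPKM (-1.18, SE 0.22, limma adjusted p = 0.0138). Sox3, its close relative, was at 73.3 and 82.1 FPKM against 39.6 and 37.1 FPKM (-0.999, SE 0.21, limma adjusted p = 0.018). The groups of these 3 genes did not overlap. Sox2, which mESCs and neural precursors both use, did not pass the test, at 98.3 and 102 FPKM in wild type against 125 and 121 FPKM in Pcgf5-/- cells (limma adjusted p = 0.0901). Sox4 was at 89.0 and 80.5 FPKM against 40.9 and 56.4 FPKM (limma adjusted p = 0.242) and Sox12 at 23.9 and 32.9 FPKM against 23.1 and 23.9 FPKM (limma adjusted p = 0.437). Sox10, the neural crest and glial member, was at or under 0.161 FPKM in every sample.

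Of 13 known or proposed targets of class III POU factors, 8 were tested, and 6 were lower in Pcgf5-/- cells at day 6 with none higher. Fabp7, a fatty acid binding protein of radial glia, was at 75.9 and 41.5 FPKM in wild type and at 12.8 and 22.4 FPKM in Pcgf5-/- cells (log2 fold change -1.67, SE 0.33, limma adjusted p = 0.0145). Nes, the intermediate filament of neural progenitors, was at 58.2 and 62.3 FPKM against 24.0 and 20.0 FPKM (-1.42, SE 0.16, limma adjusted p = 0.00393). Dll1, a Notch ligand, was at 24.5 and 18.8 FPKM against 7.76 and 7.40 FPKM (-1.39, SE 0.22, limma adjusted p = 0.00907). The other genes that were lower were Zfp521, Pax6 and Zic1, by 1.16 to 1.21 on the log2 scale (log2 fold changes of -1.20, -1.16 and -1.21). Zic1, at 2.39 and 4.63 FPKM against 1.07 and 0.724 FPKM, passed the filter through the wild-type samples of day 6 alone. Its log2 fold change ran from -1.81 to -0.84 over 15 other settings, and its call was lost in some of them. Zic2 and Mitf did not pass the test, with log2 fold changes of 0.54 and 0.61. The hypothalamic genes Crh, Avp and Oxt and the Schwann cell gene Egr2 were under 1 FPKM in every sample.

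Of the 12 neuronal and cortical co-factors 8 were tested, and 4 were lower in Pcgf5-/- cells at day 6. Myt1l, which is used with Pou3f2 in neuronal conversion, was at or under 0.231 FPKM in every sample. The related Myt1 was at 3.51 and 1.29 FPKM in wild type and at 0.539 and 0.448 FPKM in Pcgf5-/- cells (-1.11, SE 0.29, limma adjusted p = 0.0353). Neurog2 was at 2.65 and 1.34 FPKM against 0.873 and 0.398 FPKM (-0.85, SE 0.25, limma adjusted p = 0.0488). Cux1, a homeobox gene of upper cortical layers, was also lower (-0.67, SE 0.18, limma adjusted p = 0.0361). Myt1 and Neurog2 passed the filter through the wild-type samples of day 6 alone. The call was lost in 9 of 15 other settings for Myt1, in 10 of 15 for Neurog2 and in 7 of 16 for Cux1, with adjusted p of up to 0.125, 0.202 and 0.201. Neurod1, a neuronal differentiation factor, did not pass the test and was at 10.9 and 6.71 FPKM against 9.18 and 6.59 FPKM. The layer markers Bcl11b and Tbr1 were under 1 FPKM in every sample.

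Among the other POU genes 7 of 11 were tested, and 1 was called at day 6. Pou5f1 (Oct4), the class V factor of pluripotent cells, was at 93.8 and 36.2 FPKM in wild type and at 254 and 228 FPKM in Pcgf5-/- cells, higher by 2.03 on the log2 scale (SE 0.35, limma adjusted p = 0.0107). At day 0 it was between 333 and 374 FPKM in all samples. Pou2f3, Pou4f1, Pou2f2, Pou6f1, Pou4f2 and Pou2f1 had log2 fold changes from -0.68 to 0.72 at day 6, none past the test. The ubiquitous Pou2f1 (Oct1) was at 8.96 and 7.31 FPKM against 10.1 and 6.85 FPKM. Pou1f1 was listed at 0 throughout, and Pou4f3 and Pou5f2 stayed under 1 FPKM.

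**Figure D4:**
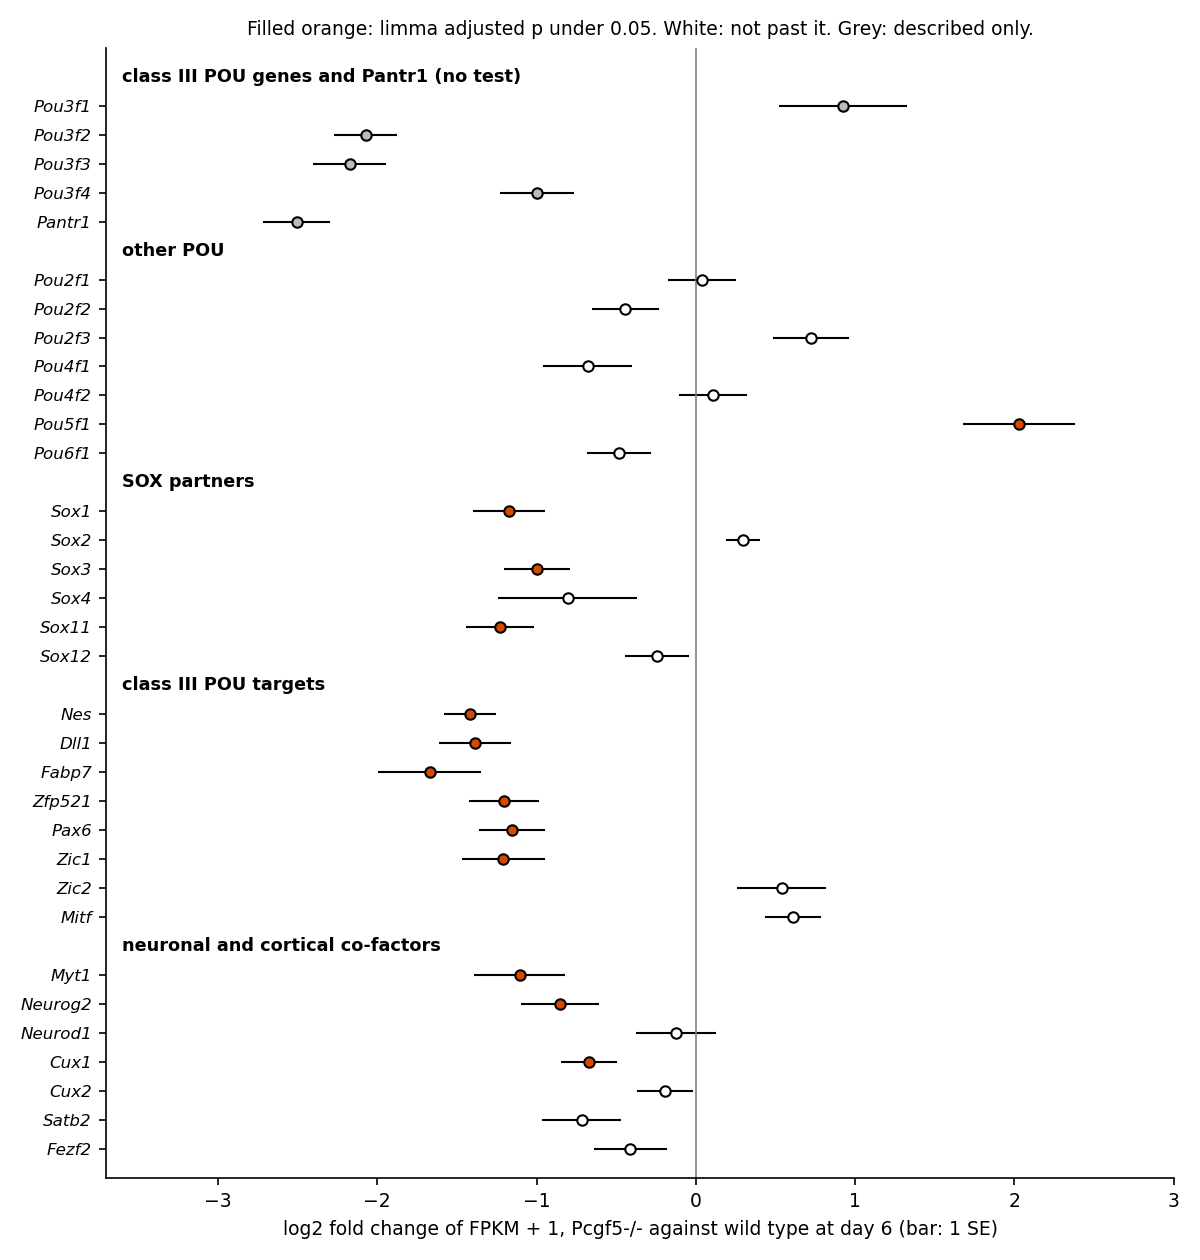
Log2 fold change of FPKM + 1 in Pcgf5-/- against wild type at day 6, with bars of 1 SE, for the 5 genes (grey, described only) and the tested genes of the 4 lists that are reported here. Filled orange points passed a limma adjusted p of 0.05: Pou5f1 lies right of 0 and all the others lie left of it.

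Over the 6 days the same lists changed in both genotypes. In wild type 21 of the 29 genes rose and 5 fell, against 34.2% and 16.2% of all genes. In Pcgf5-/- cells 16 rose and 4 fell, against 21.9% and 10.4%. The SOX genes Sox1, Sox3, Sox4, Sox11 and Sox12 rose in both genotypes. Sox2 fell in wild type, and its fall in Pcgf5-/- cells (-0.35, SE 0.11, limma adjusted p = 0.0348) was lost in 9 of 16 other settings, with adjusted p of up to 0.146. Sox11 rose by 5.75 on the log2 scale in wild type (SE 0.21, limma adjusted p = 4.22e-06) and by 3.99 in Pcgf5-/- cells (SE 0.21, limma adjusted p = 6.82e-05). Fabp7, Pax6 and Dll1 rose in both, by 5.84, 4.87 and 4.11 in wild type and by 4.02, 3.50 and 2.75 in Pcgf5-/- cells. Neurod1 rose by 2.86 and 2.83, respectively. Mitf, a melanocyte and eye pigment factor, fell in both (-3.08 and -2.85), as did Pou2f3 (-3.75 and -3.50) and Pou4f2 (-1.24 and -1.07). Pou5f1 fell by 2.57 in wild type (log2 fold change -2.57, limma adjusted p = 0.000588), and its change in Pcgf5-/- cells did not pass the test (-0.52, limma adjusted p = 0.293). Pou2f2 rose in both genotypes (1.26 and 0.84), and Pou6f1 passed in wild type (0.96). The comparisons of the days and those of the genotypes share samples.

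Whether the genotype effect differed between day 6 and day 0 was tested by an interaction term. It was called for 4 of the 29 genes, all with a lower term, against 1.75% of all genes with a lower and 1.34% with a higher term. They were Sox11 (-1.77, SE 0.30, limma adjusted p = 0.0314), Sox3 (-1.76, SE 0.29, limma adjusted p = 0.031), Pax6 (-1.38, SE 0.29, limma adjusted p = 0.0491) and Nes (-1.35, SE 0.23, limma adjusted p = 0.0315). Of these 4 calls, 3 were kept without the Pcgf5-/- replicate 1 of day 0 and 2 without the wild-type replicate 1 of day 0. None was kept without any 1 of the other 6 samples, although 2 other genes of the 29 were called without the wild-type replicate 1 of day 6. The same term for the 5 genes of interest, given with no test, was -1.97 for Pou3f2, -2.11 for Pou3f3, -1.05 for Pou3f4, -2.51 for Pantr1 and 0.33 (SE 0.57) for Pou3f1. The term of Pou3f1 changed direction with the samples used, and was at 0.01 with a pseudocount of 0.1 in place of 1, at -0.25 without the Pcgf5-/- replicate 1 of day 6 and at -0.09 without the Pcgf5-/- replicate 1 of day 0.

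Markers of other cell states moved with these values at day 6. Of 10 pluripotency markers, 9 were higher in Pcgf5-/- cells, among them Nanog (43.0 and 22.2 against 144 and 139 FPKM), Dppa5a and Tdgf1. Their summed level was 166 to 372 FPKM in wild type and 1039 to 1099 FPKM in Pcgf5-/- cells, and Tbx3 alone was under 1 FPKM, in 1 wild-type sample. Of 10 neural progenitor markers 5 were lower, with sums of 505 to 547 against 254 to 287 FPKM. Msi1 and Vim were among them (limma adjusted p = 0.00741 and 0.00995), and Hes1 did not pass. Vim alone gave 292 and 323 FPKM of the wild-type sums, against 155 and 134 FPKM of the Pcgf5-/- sums. At day 0 the sums of this list ran from 250 to 337 FPKM over both genotypes. Otx2 and Lhx2 lay higher in both Pcgf5-/- samples of day 6, and neither passed the test (limma adjusted p = 0.0603 and 0.763). Of 10 neuron markers 5 were lower, with sums of 371 to 525 against 173 to 191 FPKM, including Tubb3, Stmn2 and Nefm. The neuron sums of day 0 ran from 162 to 216 FPKM over both genotypes, a range that holds the Pcgf5-/- sums of day 6. Stmn2 fell in wild type, from 132 and 113 FPKM at day 0 to 68.0 and 64.2 FPKM at day 6. The part of these cell states in the values of the class III POU genes was not tested. Of 9 tested feeder fibroblast markers, led by Fn1, Col1a1 and Col1a2, none was called by limma between the genotypes at day 6 or at day 0 (2 and 0 at an unadjusted p under 0.05), and the sums at day 6 were 62.8 to 82.6 FPKM in wild type and 57.2 to 84.6 FPKM in Pcgf5-/- cells. Of 7 tested glial lineage markers 2 were higher, Aldh1l1 and Erbb3, with Cnp and Mbp not past the test. Both called genes lay lower at day 6 than at day 0 in each genotype, without overlap. The wild-type mean of Aldh1l1 went from 5.99 to 1.34 FPKM over the days, its Pcgf5-/- mean from 7.97 to 4.07 FPKM. For Erbb3 the wild-type mean went from 2.74 to 1.29 FPKM, the Pcgf5-/- mean from 3.53 to 2.78 FPKM. Olig1, Gfap and S100b were under 1 FPKM in every sample. The summed level of the 10 glial markers at day 6 was 20.6 FPKM in both wild-type samples against 21.9 to 24.0 FPKM. Of 7 tested mesendoderm markers, led by Eomes, Gata4 and Gata6, none was called by limma at day 6 (1 at an unadjusted p under 0.05), and their sums were 4.11 to 23.4 against 4.04 to 12.7 FPKM.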

How the data were processed

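PolyA RNA was measured in 8 samples, 2 in each of 4 conditions, grouped by their labels. Per the submitters' processing notes, reads were aligned to mm9 with TopHat2 2.0.4, and the authors computed the deposited FPKM values, with lower and upper bounds, with Cufflinks 2.1.1. They are scaled for library size and gene length, so the number of fragments behind a value is unknown. The annotation is not given in the sources used here.

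Fold changes are differences of log2(FPKM + 1), which understates those of low genes. The 13214 genes that exceeded a mean of 1 FPKM in some condition were tested with limma 3.58.1 (R 4.3.3). One model held the 4 condition means, with a variance trend and without a replicate block. Benjamini-Hochberg adjustment ran across these 13214 genes with a threshold of 0.05, and p-values measure the spread between these samples. The model was tested on simulated data. Python 3.11.15 with pandas 2.3.3 was used for tables.

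The 5 genes and the lists were chosen with earlier results of these data known, and the 5 carry no p-value. Named genes were the 5, Pcgf5, all listed POU and SOX genes, the 3 largest called rises and falls of the target and co-factor lists in each contrast, the 3 nearest profiles and the 2 nearest genes on each side of every member, and the 3 most expressed genes of each marker list. Others are named where a count needed it, and a few listed genes are counted but not reported here by name. The labels give replicate numbers but no shared batch, so the numbers were not taken as pairs in the main model. Across genes, the differences between replicates 1 and 2 of the genotypes correlated with r = 0.39 at day 6 and 0.10 at day 0, over 2 pairs. Whether replicates with the same number shared a batch at day 6 was not tested, and counts with a replicate block are given below.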

Additional observations from a re-analysis of the deposited data

Results flagged for a closer look

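The genotype effect on 4 of the 29 tested related genes differed between day 6 and day 0 by the interaction term of limma. The term was -1.76 for Sox3 (SE 0.29, limma adjusted p = 0.031), -1.77 for Sox11 (SE 0.30, limma adjusted p = 0.0314), -1.35 for Nes (SE 0.23, limma adjusted p = 0.0315) and -1.38 for Pax6 (SE 0.29, limma adjusted p = 0.0491), each on the log2(FPKM + 1) scale. For Sox3 and Sox11 part of the term came from day 0, where Pcgf5-/- cells had log2 fold changes of 0.76 (unadjusted p = 0.00644, limma adjusted p = 0.115) and 0.54 (unadjusted p = 0.0338, limma adjusted p = 0.242). Nes and Pax6 were at -0.07 and 0.22 at day 0. With 2 samples in a group no sample could be tested as standing apart within its group.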

How the results depend on the processing

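The number of called partner and target genes at day 6 was 14, and it was 9 with a pseudocount of 0.1 and between 1 and 13 when each sample was left out in turn. The interaction was called for 4, and for 0 without a filter on low values, 8 with a replicate block for each day and between 0 and 3 with a sample left out. The counts for the days in each genotype stayed within 1.5 times, and that for day 0 stayed at 0, under all settings tried. A replicate block in the model gave counts of 15 at day 6, 0 at day 0, 26 and 20 for the days in wild type and Pcgf5-/- cells and 4 for the interaction, which shared 14, 0, 26, 20 and 3 genes with the calls made without the block. With a pseudocount of 0.1 the log2 fold changes between the genotypes at day 6 were -2.37 for Pou3f3, -1.66 for Pou3f4 and -2.83 for Pantr1. Those between the days were 3.36, 5.96, 5.99 and 4.33 in wild type for Pou3f1, Pou3f2, Pou3f3 and Pou3f4, and 4.09, 3.73 and 2.39 in Pcgf5-/- cells for Pou3f2, Pou3f3 and Pou3f4, where the pseudocount of 1 gave 2.51, 4.33, 4.25 and 1.75, and 2.36, 2.14 and 0.71. With quantile normalization they were -2.33 for Pou3f3 at day 6, 2.09, 4.10 and 1.50 in wild type for Pou3f1, Pou3f2 and Pou3f4, and 2.097 and 1.89 in Pcgf5-/- cells for Pou3f2 and Pou3f3. This normalization moved the median of all genes from 0.22 to 0.01 for the days in wild type, from 0.13 to 0.03 for the days in Pcgf5-/- cells and from 0.11 to -0.01 for the genotypes at day 0. The changes of the 4 coding genes between the days moved down as well, in most cases by more than the median did. The interaction term was -1.94 for Pou3f4 and -2.83 for Pantr1 with a pseudocount of 0.1. With a sample left out it ran from -0.25 to 0.90 for Pou3f1, -2.16 to -1.77 for Pou3f2, -2.36 to -1.86 for Pou3f3, -1.32 to -0.77 for Pou3f4 and -2.77 to -2.24 for Pantr1. That of Pou3f1 turned, to -0.25 and -0.09, without the Pcgf5-/- replicate 1 of day 6 or of day 0. The genotype difference of Pou3f2 at day 0 was -0.37 with a pseudocount of 0.1 and -0.23 with quantile normalization, against -0.10. The changes of the 5 genes between the genotypes at day 6, and of the 4 coding genes between the days, kept their sign with a pseudocount of 0.1, quantile normalization, a replicate block and each sample left out. With 2 samples in a group, and with the depth behind each FPKM unknown, values under 1 FPKM carry no reading of a difference.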

Other observations

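Pou3f1 is known as a gene of the late epiblast, so 5 other genes of that stage were read after the values of Pou3f1 had been seen, with no test. Fgf5 was between 0.0269 and 0.166 FPKM at day 0, at 3.33 and 0.525 FPKM in wild type at day 6 and at 8.19 and 2.15 FPKM in Pcgf5-/- cells. Dnmt3b was at 69.1 and 33.0 FPKM in wild type and at 112 and 64.8 FPKM in Pcgf5-/- cells at day 6. For both genes the groups of day 6 overlapped, and within each genotype replicate 1 was the higher sample, as it was for Pou3f1. The other 3 genes lay higher in both Pcgf5-/- samples of day 6. Otx2, which is also one of the 10 neural progenitor markers, was at 11.9 and 7.03 FPKM against 31.9 and 20.1 FPKM. Lef1 was at 9.25 and 5.95 FPKM against 32.5 and 15.4 FPKM, and Utf1, which is also one of the pluripotency markers, was at 43.8 and 21.9 FPKM against 154 and 139 FPKM.

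At day 0, where Pou3f1 was higher in both Pcgf5-/- samples, 3 of the 5 genes were lower in both. Over all tested genes 13.3% lay below and 34.6% lay above in this way at day 0. The wild-type values of Pou3f1 and the Pcgf5-/- values of Lef1 were under 1 FPKM, where a difference carries no reading. Otx2 was at 15.1 and 8.49 FPKM in wild type and at 5.71 and 2.17 FPKM in Pcgf5-/- cells, Dnmt3b at 26.9 and 37.9 FPKM against 14.4 and 19.5 FPKM, and Lef1 at 1.45 and 1.14 FPKM against 0.648 and 0.603 FPKM. Utf1 was higher, at 59.1 and 65.8 FPKM against 70.9 and 77.2 FPKM, and Fgf5 overlapped.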
